A study of Mus musculus with 14 samples.

Results

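Weak coding promoters in LSK cells were defined here as stretches of H3K4me3 that overlap the 1 kb on either side of a protein-coding gene start and that were called as peaks in only 1 or 2 of 7 peak lists. LSK cells are lineage-negative, Sca1-positive, cKit-positive bone marrow cells, the compartment that holds the blood stem cells and their early progenitors. The members were chosen by their calls alone: the peaks of the 7 lists were merged wherever they overlapped or touched, and each merged region was scored by how many lists had a peak in it. Of 14659 merged regions, 10001 lay at a coding start, and 1433 of these were called in 1 list (825) or 2 lists (608). Among all merged regions, 27.9% were called in 1 or 2 lists, and among those at coding starts 14.3% were. The comparison set was the 3846 coding promoter regions called in all 7 lists, referred to below as core promoters.

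The lists come from CUT&Tag, in which an antibody against a histone mark directs a transposase that inserts sequencing adapters into the marked chromatin. Cells were sorted from male C57BL/6J mice that had been fed a high-fat diet (HFD-LSK, n = 3 libraries) or a low-fat control diet (LFD-LSK, n = 4 libraries) for months from a young age, and the labels name no other treatment. The study asked whether diet-induced obesity alters H3K4me3 in these cells. Nothing in the labels ties a library to a mouse of its own, so p-values measure the spread between libraries, which may be partly technical.

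H3K4me3, the trimethylation of lysine 4 of histone H3, marks nucleosomes around active or poised transcription start sites. Promoters rich in CpG dinucleotides recruit H3K4 methyltransferases through proteins that bind unmethylated CpG, so CpG islands usually carry the mark even at modest transcription. Promoters of developmental regulators that are silent in a tissue often carry a low, narrow H3K4me3 signal together with H3K27me3, the mark of Polycomb repression. CpG-poor promoters, which include many of immune effector and tissue-specific genes, usually gain the mark only when transcribed.

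The sorted cells matched their label at most defining genes, none of which fell among the weak promoters. Kit, Cd34, Mecom, Meis1 and Hoxa9 were called in all 7 lists, Flt3 in 6, Hlf in 5 and Procr in 3. Ly6a, which encodes Sca1, and Slamf1 had no region within 1 kb of their listed start. No neutrophil marker (0 of 8) and no T or NK cell marker (0 of 9) had a region in any list. Of B cell and of monocyte markers, 1 of 8 each was called, Cd79b and Mertk in 3 lists, and of 8 erythroid markers 3 were, among them Klf1 in 6 lists and Epor in 4. Markers of other cells appeared in the weak class at 3 of 8 stromal and endothelial genes (Cxcl12, Kdr and Pdgfrb), 1 of 8 erythroid genes and 1 of 6 megakaryocyte genes (Pf4). Of all coding genes, 6.17% did. With every list cut to its 6921 strongest peaks by fold, the same counts were 1, 1 and 0, against 7.35% of all genes. B cell, monocyte and LSK markers then had 1 each. The part of other cells in the results below was not tested.

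The promoter windows of 11 genes, as RefSeq gives them on GRCm38.p6 from 250 bases before to 50 after the start, show how much the starts of weak promoters vary in CpG content. CpG dinucleotides are in capitals, and each sequence reads 5′ to 3′ on the strand of its gene. The first 3 belong to weak promoters called in 2 lists with the highest fold rank and an entry in the table: Ccdc57, a coiled-coil protein gene (chr11:120932823-120933122, minus strand), Csnk2a1, a catalytic subunit of casein kinase 2 (chr2:152226590-152226889, plus strand) and Nkrf, a repressor of NF-κB target genes (chrX:36903416-36903715, minus strand).
Ccdc57: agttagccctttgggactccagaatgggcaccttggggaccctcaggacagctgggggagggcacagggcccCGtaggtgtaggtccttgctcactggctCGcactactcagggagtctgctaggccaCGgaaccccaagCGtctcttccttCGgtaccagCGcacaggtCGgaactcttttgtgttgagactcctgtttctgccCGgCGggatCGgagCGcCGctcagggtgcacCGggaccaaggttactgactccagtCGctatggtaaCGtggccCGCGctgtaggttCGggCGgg
Csnk2a1: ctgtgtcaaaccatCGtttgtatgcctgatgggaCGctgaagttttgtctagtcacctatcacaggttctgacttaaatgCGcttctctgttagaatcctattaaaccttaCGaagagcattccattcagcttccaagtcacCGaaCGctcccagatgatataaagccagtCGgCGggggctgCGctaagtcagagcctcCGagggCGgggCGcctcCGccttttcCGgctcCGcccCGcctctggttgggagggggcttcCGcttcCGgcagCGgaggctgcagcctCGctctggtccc
Nkrf: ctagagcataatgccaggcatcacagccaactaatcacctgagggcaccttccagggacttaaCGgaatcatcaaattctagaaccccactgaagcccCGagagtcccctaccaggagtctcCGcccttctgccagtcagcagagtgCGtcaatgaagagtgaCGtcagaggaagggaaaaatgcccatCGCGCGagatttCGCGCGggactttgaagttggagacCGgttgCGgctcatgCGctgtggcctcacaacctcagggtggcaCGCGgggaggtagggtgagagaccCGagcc
These windows hold 19, 20 and 17 CpG dinucleotides. The window lies wholly inside the called region at Ccdc57 and Nkrf, whereas at Csnk2a1 the region begins downstream of it, at chr2:152227134-152227943.

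The next pair belongs to weak promoters called in 1 list, chosen the same way: Cyp46a1, the brain cholesterol 24-hydroxylase (chr12:108334066-108334365, plus strand), and Mark1, a microtubule affinity-regulating kinase (chr1:184999905-185000204, minus strand).
Cyp46a1: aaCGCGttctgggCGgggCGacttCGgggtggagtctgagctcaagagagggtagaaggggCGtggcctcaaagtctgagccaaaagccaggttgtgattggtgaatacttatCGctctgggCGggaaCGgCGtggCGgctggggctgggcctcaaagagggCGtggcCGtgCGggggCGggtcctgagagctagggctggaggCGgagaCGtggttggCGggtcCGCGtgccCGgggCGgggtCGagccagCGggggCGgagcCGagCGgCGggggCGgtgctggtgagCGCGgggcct
Mark1: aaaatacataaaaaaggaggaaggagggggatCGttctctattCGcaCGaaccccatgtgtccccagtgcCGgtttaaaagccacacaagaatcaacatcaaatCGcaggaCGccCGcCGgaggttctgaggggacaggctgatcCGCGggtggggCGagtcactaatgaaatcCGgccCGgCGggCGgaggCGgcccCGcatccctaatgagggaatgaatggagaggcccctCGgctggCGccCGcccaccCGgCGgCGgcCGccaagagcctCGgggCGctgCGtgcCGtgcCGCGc
They hold 31 and 30 CpG dinucleotides. The weak region at Cyp46a1 lies upstream of the window, at chr12:108333050-108333570, and the same gene has another region that more lists call.

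The core promoters of highest fold rank with an entry, shown for contrast, are those of Gen1, a Holliday junction resolvase (chr12:11265758-11266057, minus strand), and Top2b, DNA topoisomerase II beta (chr14:16364956-16365255, plus strand).
Gen1: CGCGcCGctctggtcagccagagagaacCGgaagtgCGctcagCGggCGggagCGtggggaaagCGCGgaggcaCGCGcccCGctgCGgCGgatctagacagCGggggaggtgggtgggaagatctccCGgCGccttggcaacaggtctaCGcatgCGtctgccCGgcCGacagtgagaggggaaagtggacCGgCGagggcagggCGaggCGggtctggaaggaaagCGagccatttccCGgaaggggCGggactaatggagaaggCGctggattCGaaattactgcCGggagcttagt
Top2b: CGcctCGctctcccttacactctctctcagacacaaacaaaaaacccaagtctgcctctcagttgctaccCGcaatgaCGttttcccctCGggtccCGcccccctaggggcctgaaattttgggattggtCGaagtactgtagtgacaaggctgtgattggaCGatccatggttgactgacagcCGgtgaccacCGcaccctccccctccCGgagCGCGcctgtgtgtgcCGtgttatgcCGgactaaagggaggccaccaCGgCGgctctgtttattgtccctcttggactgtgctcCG
They hold 32 and 18 CpG dinucleotides, so a CpG count of this size occurred among both weak and core promoters.

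The last 4 were chosen after their values were seen, to show both kinds of sequence among the weak promoters: Tnf, the inflammatory cytokine (chr17:35201958-35202257, minus strand), Il2rg, the common gamma chain of the interleukin-2 receptor family (chrX:101268206-101268505, minus strand), Ifi47, an interferon-inducible GTPase (chr11:49076337-49076636, plus strand), and Lhx2, a LIM homeobox factor (chr2:38339031-38339330, plus strand).
Tnf: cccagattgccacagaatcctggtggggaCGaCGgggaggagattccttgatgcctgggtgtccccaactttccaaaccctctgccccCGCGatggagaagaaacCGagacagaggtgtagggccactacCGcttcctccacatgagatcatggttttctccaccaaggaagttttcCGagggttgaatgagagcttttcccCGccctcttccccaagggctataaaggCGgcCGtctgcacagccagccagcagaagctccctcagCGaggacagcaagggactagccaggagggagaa
Il2rg: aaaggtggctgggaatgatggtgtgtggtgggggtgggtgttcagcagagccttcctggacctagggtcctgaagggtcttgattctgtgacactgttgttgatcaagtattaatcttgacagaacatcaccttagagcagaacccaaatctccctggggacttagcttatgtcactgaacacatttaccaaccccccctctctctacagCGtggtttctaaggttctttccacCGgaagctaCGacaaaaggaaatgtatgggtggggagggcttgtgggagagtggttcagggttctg
Ifi47: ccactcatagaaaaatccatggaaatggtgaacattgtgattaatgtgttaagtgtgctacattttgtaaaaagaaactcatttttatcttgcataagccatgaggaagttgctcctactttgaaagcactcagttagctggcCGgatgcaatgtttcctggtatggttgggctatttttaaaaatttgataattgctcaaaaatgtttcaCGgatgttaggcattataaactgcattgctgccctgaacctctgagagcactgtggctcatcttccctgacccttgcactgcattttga
Lhx2: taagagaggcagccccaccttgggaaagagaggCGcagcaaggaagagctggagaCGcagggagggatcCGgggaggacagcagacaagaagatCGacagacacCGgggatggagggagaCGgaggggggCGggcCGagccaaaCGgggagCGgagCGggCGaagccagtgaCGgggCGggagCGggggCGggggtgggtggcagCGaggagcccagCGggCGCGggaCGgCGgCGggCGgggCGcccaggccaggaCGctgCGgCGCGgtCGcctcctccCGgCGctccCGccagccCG
Tnf has 11 CpG dinucleotides, Il2rg 3 and Ifi47 2, against 34 at Lhx2.

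Which lists called the weak promoters was very uneven. HFD-LSK replicate 2 called 963 of the 1433 (67.2%), HFD-LSK replicate 3 called 604 (42.1%), and HFD-LSK replicate 1 called 9 (0.628%). LFD-LSK replicates 1 to 4 called 2, 196, 210 and 57. The HFD-LSK libraries thus held both the highest counts and 1 of the 2 lowest, and the groups overlapped.

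**Figure D1:**
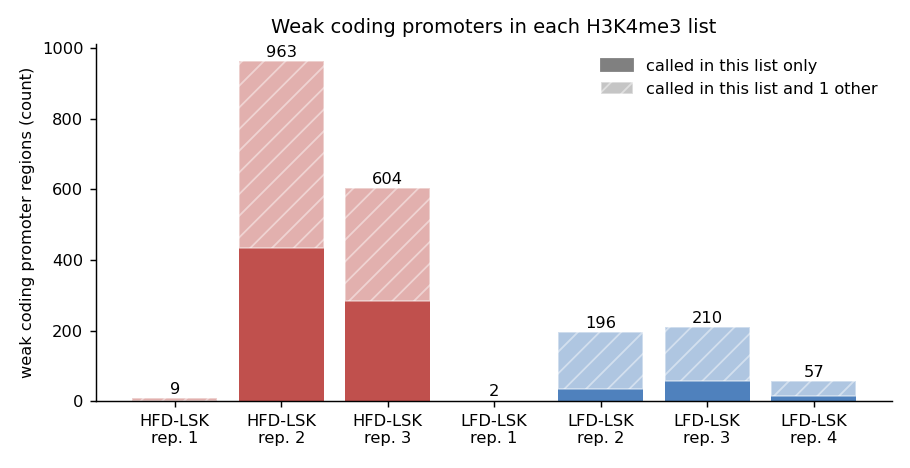
Number of weak coding promoter regions (vertical axis, count) called in each of the 7 H3K4me3 lists (3 HFD-LSK, red; 4 LFD-LSK, blue), split into regions called in that list only (solid) and in that list and 1 other (hatched). HFD-LSK replicates 2 and 3 call 963 and 604, and HFD-LSK replicate 1 and LFD-LSK replicate 1 call 9 and 2.

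Of the 825 regions called in a single list, 435 were in HFD-LSK replicate 2, 283 in HFD-LSK replicate 3 and 1 in HFD-LSK replicate 1. LFD-LSK replicates 1 to 4 had 0, 34, 58 and 14. Among the 608 regions called in 2 lists, the commonest pair was HFD-LSK replicates 2 and 3, with 257 regions (42.3%). The pairs of HFD-LSK replicate 2 with LFD-LSK replicate 2 and with LFD-LSK replicate 3 came next, with 134 and 109, so most regions called in 2 lists involved HFD-LSK replicate 2.

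By diet, 984 weak promoters (68.7%) were called in HFD-LSK lists only, 122 (8.51%) in LFD-LSK lists only and 327 in 1 list of each. Those shares are to be read against all merged regions called in 1 or 2 lists, of which 73.6% were called in HFD-LSK lists only and 9.1% in LFD-LSK lists only. List length differed along with these counts: HFD-LSK replicates 2 and 3 hold 13094 and 11977 peaks, and the other lists 6921 to 10572. When every list was reduced to its 6921 strongest peaks by fold, the same rule gave 1548 regions, of which 605 (39.1%) were in HFD-LSK lists only and 541 (34.9%) in LFD-LSK lists only. HFD-LSK replicate 3 then called 761 of the 1548, 462 of them alone, HFD-LSK replicates 1 and 2 called 106 and 200, and LFD-LSK replicates 1 to 4 called 121, 225, 287 and 443. The part of list length in the diet pattern was not tested. The equal lists share 345 genes with the weak promoters of the full lists, which is 24.1% of the 1429 genes there and 21.6% of the 1600 genes at equal list length. The cut removes the peaks of lowest fold, where weak promoters mostly lay, so mostly other regions are weak at equal list length. HFD-LSK replicates 2 and 3 still called only 16 of their 963 and 220 of their 604 first members. Shares at equal list length therefore do not show the effect of list length alone.

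A region chosen on its calls cannot be tested on the same calls, so each library was compared on regions classed without it. For each library, the coding promoter regions called in 1 or 2 of the other 6 lists were taken, and the share that the left-out library itself called was measured. The share was 8.72%, 72.5% and 45.8% in HFD-LSK replicates 1 to 3, and 1.65%, 29.7%, 26.3% and 8.14% in LFD-LSK replicates 1 to 4. The mean was 42.3% ± 32.0 (SD, n = 3) in HFD-LSK and 16.4% ± 13.7 (SD, n = 4) in LFD-LSK. The difference of 25.9 percentage points was within the spread of the libraries (two-sided exact permutation over 35 splits, p = 0.2; the smallest p this design allows is 0.0286). With lists of equal length the difference was 3.51 points (exact permutation p = 0.686), and without HFD-LSK replicate 2 it was 13.5 points (exact permutation p = 0.467). Without HFD-LSK replicate 1 it was 42.4 points (exact permutation p = 0.0667, the smallest that 2 against 4 libraries allow).

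**Figure D2:**
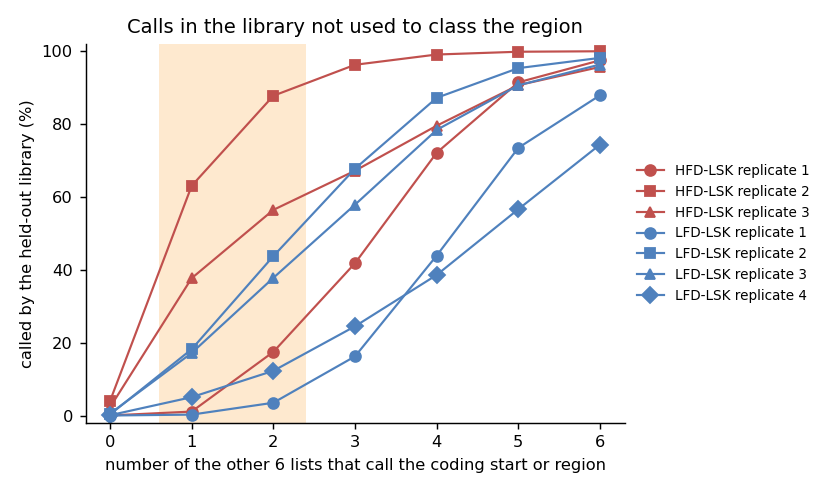
Percent of coding promoter regions (or, at 0, of coding gene starts with no peak in the other lists) that the left-out library calls (vertical axis) against the number of the other 6 lists that call them (horizontal axis), 1 line per library, HFD-LSK red and LFD-LSK blue. The shaded band marks regions called in 1 or 2 of the other lists, where the 7 libraries range from 0.242% to 87.8%.

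The same held-out shares rose in all 7 libraries with the number of other lists. At coding starts without a peak in any other list, 0 to 3.95% were called by the left-out library, and at regions called in all 6 others, 74.4% to 100%. Regions called in exactly 1 other list were called by HFD-LSK replicate 2 at 63.1% and by LFD-LSK replicate 1 at 0.242%.

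How few fragments sufficed for a call differed between libraries. The number of fragments stacked at each summit was worked back from the deposited fold and p-value, and the fewest at any called peak was 4 in HFD-LSK replicate 3, 8 in HFD-LSK replicate 2 and LFD-LSK replicate 3, 9 and 10 in LFD-LSK replicates 4 and 2, 16 in HFD-LSK replicate 1 and 21 in LFD-LSK replicate 1. The working back took the fragments of each list as multiplied by a scale to the size of a control. That scale was lowest, 0.0958, in LFD-LSK replicate 1 and highest, 0.913, in HFD-LSK replicate 3. The limits of 21 and 4 fragments were thus counted before scaling, and the part of the scale in them was not tested. Relative to the mean fragment coverage of each library, the lowest call stood at 29.8 times in HFD-LSK replicate 2 and 34.5 times in HFD-LSK replicate 3. It stood at 58.1 and 60.0 times in LFD-LSK replicates 2 and 3, at 79.7 in HFD-LSK replicate 1, and at 98.3 and 101 in LFD-LSK replicates 1 and 4. The held-out share fell in nearly the reverse order, with only LFD-LSK replicates 1 and 4 exchanged. The part of this calling limit in the diet difference was not tested.

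Fold and width, which go with the number of calls and carry no test, placed weak promoters low in every list. Fold is the enrichment of a peak summit over its local background, on the scaled counts above. Its percentile runs from 0 for the weakest peak of a list to 100 for the strongest. Averaged over the lists that called a region, the median percentile was 18.7 (upper quartile 29.8) for weak promoters and 65.0 (upper quartile 75.7) for core promoters. In 918 weak regions (64.1%) the mean percentile was under 25, and in 93 (6.49%) it was over 50, against 25 (0.650%) and 3092 (80.4%) of core regions. The median region was 582 bp wide (quartiles 416 and 792) for weak promoters and 1738 bp (quartiles 1384 and 2227) for core promoters. Merged regions can only widen as peaks of more lists are merged. The strongest peak of each calling list had a median width of 459 bp at regions in 1 list. It was 524 bp at regions in 2 lists and 1059 bp at core promoters. At the edge of the definition, regions called in 2 lists had a median percentile of 22.0 and width of 734 bp, and regions called in 3 lists 26.9 and 897 bp.

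**Figure D3:**
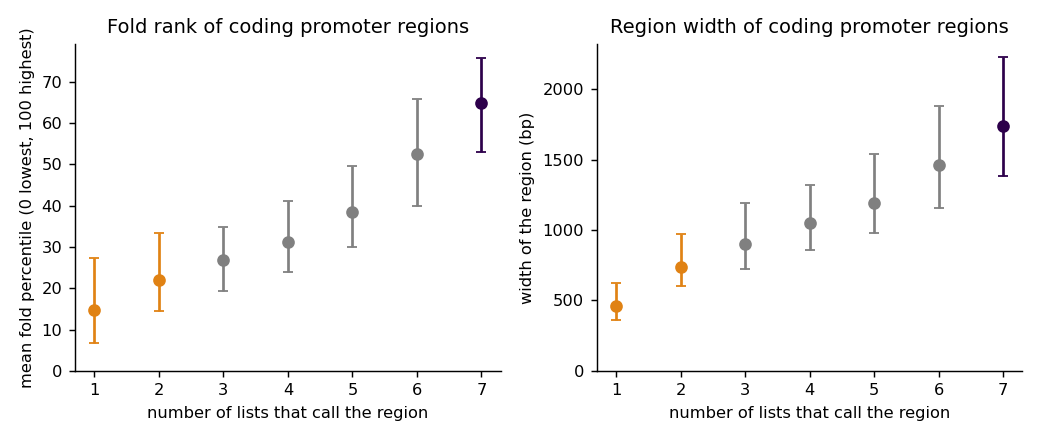
Mean fold percentile (left, 0 weakest to 100 strongest peak of a list) and region width in bp (right) of coding promoter regions by the number of lists that call them; points are medians, bars run from the lower to the upper quartile, weak promoters in orange and core promoters in dark purple. Medians rise from 14.8 to 65.0 in percentile and from 459 to 1738 bp in width.

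Within single lists, the median fold of the weak promoters called there was 6.65 in HFD-LSK replicate 2, against 21.3 for core promoters, and 6.33 against 8.39 in HFD-LSK replicate 3. In LFD-LSK replicates 2, 3 and 4 it was 5.39 against 11.6, 4.97 against 8.93 and 3.63 against 5.85. The gap was smallest in HFD-LSK replicate 3, where the median percentile of weak promoters was 34.8, against 6.83 to 15.5 in the other 4 lists that called more than 50 of them. In that library a summit held a median of 8 fragments at weak and 21 at core promoters, so many folds were tied: its 604 members took 90 different values, and 72 shared the fold 5.03. HFD-LSK replicate 2 had 17 fragments at weak and 64 at core summits.

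The genes at weak promoters were mostly genes with no region called in more lists. Of 21440 coding genes with a placed start, 1323 (6.17%) had a weak region and no region in more lists, 5118 had one called in 3 to 6 lists, 4556 (21.2%) one called in all 7, and 10443 none. Each gene was given a single start, the outer end of its RefSeq record. Regions at other starts of the gene, more than 1 kb away, did not count. At 100 weak regions (6.98%) a gene also had a region called in more lists. These were narrower, with a median of 443.5 bp against 595 bp for the other members. The gene groups below are counted by the most often called region of each gene and read beside the 6.17% of all coding genes. No test was run on these shares.

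Regulators of embryonic development were among the genes at weak promoters, at a share that was lower with lists of equal length. Of 74 listed genes that Polycomb complexes commonly mark in other tissues, 17 (23.0%) had a weak promoter, 6 a region in 3 to 6 lists, 1 a core promoter and 50 none. They included En2, Eomes, Fgf8, Foxa2, Gsc, Ihh, Lhx2, Lhx8, Lhx9, Neurog2, Nkx6-1, Otx1, Sox3, Sox9 and Wt1, and 16 of the 17 were called in HFD-LSK lists only, as were 893 of all 1323 genes with a weak promoter. The exception was Sox3, a neural and pituitary transcription factor on the X chromosome, with a fold of 7.33 in HFD-LSK replicate 2 and 5.24 in LFD-LSK replicate 3.

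Among those called in 2 lists, Otx1, a forebrain homeobox factor (chr11:22000705-22002035, GRCm38), had folds of 7.69 and 7.98 in HFD-LSK replicates 2 and 3, on 19 and 9 fragments. Eomes, a T-box factor of mesoderm and cytotoxic lymphocytes (chr9:118478657-118479443), had 6.95 and 5.86 in the same lists, beside a second weak region called in both. Lhx2, whose CpG-dense window is printed above, reached 5.06 and 5.07. All 3 thus sat in the same pair of lists, with no peak in the remaining 5. At equal list length, 3 of the 74 (4.05%) had a weak promoter, against 7.35% of all genes. Without any 1 library, the share lay between 18.9% and 24.3%, and that of all genes between 6.28% and 7.71%.

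In related families, too, the share with a weak promoter was different at equal list length. A weak promoter stood at 12 of 61 other homeobox and Pax genes (19.7%), 8 of 44 Fox genes (18.2%), 6 of 39 Hox genes (15.4%), 3 of 19 Sox genes (15.8%), 7 of 29 Wnt ligands and Frizzled receptors (24.1%) and 5 of 27 fibroblast growth factors and receptors (18.5%). At equal list length these shares were 6.56%, 13.6%, 5.13%, 21.1%, 13.8% and 14.8% in the same order, against 7.35% of all genes. Without HFD-LSK replicate 2, 12 of the 44 Fox genes (27.3%) had a weak promoter, against 7.19% of all genes. Sox7, an endothelial and hematovascular factor, had the highest mean rank of these, with a fold of 9.16 (percentile 69.7) in HFD-LSK replicate 3. Nkx6-1, a pancreatic beta cell and motor neuron factor, followed with 8.34 (percentile 62.2) in the same list. The 7 Wnt and Frizzled genes were called in HFD-LSK lists only, as were 893 of all 1323 genes with a weak promoter. Each of the Wnt and Frizzled regions was called in 1 list, with Wnt4 and Wnt7b at a fold of 7.51 each on 8 fragments in HFD-LSK replicate 3. Among Hox genes, Hoxa10 and Hoxd1 were called in HFD-LSK replicate 3 alone, in regions of 279 and 271 bp. Hoxa6 had a region of 260 bp in HFD-LSK replicate 3 and a separate one of 298 bp in HFD-LSK replicate 2, and Hoxb3 a single region in both lists.

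Genes of neurons and of cell adhesion were also found. A weak promoter was found at 9 of 47 glutamate and GABA receptor genes (19.1%), 7 of 58 listed neuronal genes (12.1%), 9 of 94 potassium channel genes (9.6%) and 7 of 35 cadherins and protocadherins outside the clusters (20%). These shares were 12.8%, 1.72%, 4.26% and 2.86% at equal list length, against 7.35% of all genes. Without HFD-LSK replicate 2, weak promoters stood at 5 of the 47 receptor genes (10.6%), 3 of the 58 neuronal genes (5.17%) and 4 of the 35 cadherins (11.4%). The share of all genes was then 7.19%. Kcnd2, a voltage-gated potassium channel, had a fold of 9.50 (percentile 72.2) in HFD-LSK replicate 3 alone. Pcdh17, a protocadherin, had 10.3 and 6.43 in HFD-LSK replicates 2 and 3. Map2, the dendritic microtubule protein, had 6.95 in HFD-LSK replicate 2 and 4.88 in LFD-LSK replicate 3, so not all of these lay in HFD-LSK lists.

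Epithelial and junction genes were called in lists of both diets. Of 52 listed genes, 10 (19.2%) had a weak promoter, 5 of them in HFD-LSK lists only and 2 in LFD-LSK lists only. Of all 1323 genes with a weak promoter, 893 and 103 had these patterns. With equal lists, 6 of the 52 (11.5%) had a weak promoter, against 7.35% of all genes. Spint1, an inhibitor of serine proteases at epithelial surfaces (chr2:119237184-119238128), had folds of 5.47 and 10.8 in HFD-LSK replicates 2 and 3. Ocln, which encodes the tight junction protein occludin, had 8.36 in HFD-LSK replicate 2 and 4.53 in LFD-LSK replicate 3, and Crb3, a polarity protein, had 5.75 in HFD-LSK replicate 3 and 4.53 in LFD-LSK replicate 3.

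**Figure D4:**
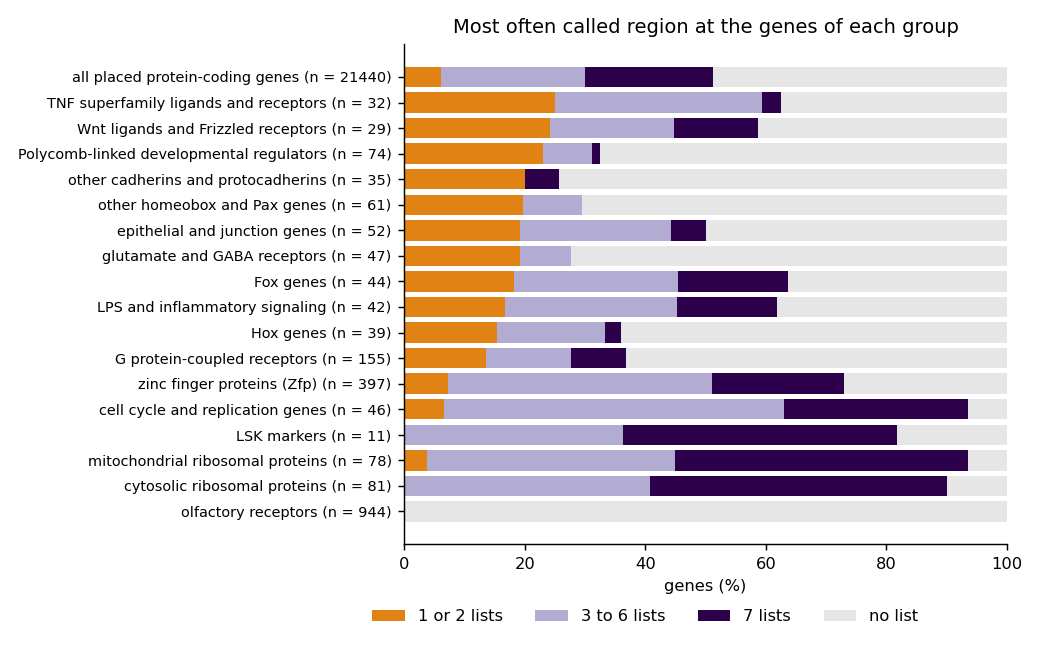
Share of genes (horizontal axis, percent) in 17 gene groups, selected after their values were seen, and in all 21440 placed coding genes whose most often called region was in 1 or 2 lists (orange), 3 to 6 lists (light purple), all 7 lists (dark purple) or none (grey). Weak promoters reach 23.0% of Polycomb-linked developmental regulators and 25% of TNF superfamily genes, against 6.17% of all genes and 0% of cytosolic ribosomal protein genes.

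Immune genes were present, several with CpG-poor starts. The list of LPS and inflammatory signaling genes held 7 weak promoters among 42 (16.7%): Ccl3, Ccl4, Il18, Ptgs2, Tlr3, Tlr5 and Tnf. Ccl3 and Ccl4, neighboring macrophage chemokine genes, shared 1 region (chr11:83648619-83649227) with folds of 5.37 and 6.07 in HFD-LSK replicates 2 and 3. Tlr3, the receptor of double-stranded RNA, had 6.19 and 7.51 in the same lists. Tnf (chr17:35200297-35202204) had 7.33 in HFD-LSK replicate 2 and 7.38 in LFD-LSK replicate 3, on 17 and 18 fragments. It was the only one of the 7 seen in an LFD-LSK list. Of all 1323 genes with a weak promoter, 893 were called in HFD-LSK lists only. The regions of these 7 genes had CpG ratios from 0.231 to 0.548 at Ptgs2, all under the median of the weak promoters given below. The lowest is that of Ccl4, the gene nearest the middle of the region shared with Ccl3.

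The TNF superfamily had the highest share of any family with over 20 genes, 8 of 32 (25%), among them Tnfrsf12a, the receptor of TWEAK, with 9.59 in HFD-LSK replicate 2 and 5.39 in LFD-LSK replicate 2. Chemokines and their receptors had 6 of 53 (11.3%), interleukins and their receptors 7 of 82 (8.54%) and interferon-induced genes 6 of 59 (10.2%). Isg20, an interferon-induced exonuclease, was called in LFD-LSK replicate 3 alone with a fold of 8.10 over a region of 2142 bp. Ifi47 had 5.37 and 8.34 in HFD-LSK replicates 2 and 3. At equal list length, the inflammatory list had 7 of 42 (16.7%), the TNF superfamily 15.6%, chemokines and their receptors 1.89%, interleukins and their receptors 9 of 82 and interferon-induced genes 20.3%, against 7.35% of all genes. Without HFD-LSK replicate 3, interferon-induced genes had 12 of 59 (20.3%), against 6.87% of all genes.

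Ribosomal protein and proteasome genes had low shares of weak promoters with the full lists but not at equal length, where the members mostly differ. Cell cycle and replication genes stood near the 6.17% of all coding genes with the full lists. None of 81 cytosolic ribosomal protein genes, 3 of 78 mitochondrial ribosomal protein genes (3.85%) and 1 of 40 proteasome subunit genes (2.5%) had a weak promoter as their most often called region. Of 46 cell cycle and replication genes, 3 (6.52%) did: Bub1b, a spindle checkpoint kinase, with folds of 8.09 and 9.16 in HFD-LSK replicates 2 and 3, Ccnb2, a mitotic B-type cyclin, with 8.09 in HFD-LSK replicate 2 and 8.04 in LFD-LSK replicate 2, and Tk1, thymidine kinase, in a single list. With lists of equal length, cell cycle and replication genes had 9 of 46 (19.6%), proteasome subunits 4 of 40 (10%), mitochondrial ribosomal proteins 7.69% and cytosolic ribosomal proteins 7.41%, against 7.35% of all genes. Of 944 olfactory receptor genes, 1 had a weak promoter, Olfr94, and 943 had no region. Vomeronasal receptors and tetraspanins had none, though 3 of 20 tetraspanins did at equal list length. Zinc finger genes of the Zfp series, with 29 of 397 (7.30%), stood near the background, and had 48 (12.1%) at equal list length.

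Among genes the study named for its diet comparison in LSK cells, a list chosen on these samples and so not independent evidence, 1 of 15 was a weak promoter. That is 6.67%, near the 6.17% of all coding genes. Nipal1, a magnesium transporter gene (chr5:72647283-72648368), had folds of 7.33 and 5.86 in HFD-LSK replicates 2 and 3, on 17 and 6 fragments, and no peak in HFD-LSK replicate 1 or any LFD-LSK list. This pair of lists was the commonest among weak promoters called in 2 lists, with 257 regions.

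The weak promoters of highest rank were of mixed function. After Ccdc57, with 9.60 in HFD-LSK replicate 2 and 15.1 (percentile 94.7) in HFD-LSK replicate 3, came Prdm1, the repressor that directs plasma cell and effector T cell fate (chr10:44529075-44530146), with 18.8 (percentile 69.3, 50 fragments) in HFD-LSK replicate 2 and 7.38 in LFD-LSK replicate 3. Spon1, a secreted matrix protein, and Gpt, alanine aminotransferase, followed in HFD-LSK replicates 2 and 3, at mean percentiles of 59.4 and 57.7. Others of the first 10 were Csnk2a1, Nkrf, Zfr2, Dntt and Zpbp2. Dntt, the terminal transferase of lymphoid progenitors, also had the second widest region, 2405 bp, with folds of 9.97 and 10.2 in the same 2 lists.

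The other widest regions stood at Hgf, hepatocyte growth factor (2571 bp), Mndal, an interferon-inducible gene (2346 bp), Slc43a3 (2271 bp) and Fgf16 (2246 bp). Of the single-list members, the 5 of highest rank, Gnal, Nsg1, Cyp46a1, Mark1 and 2810459M11Rik, were all called in HFD-LSK replicate 3, at percentiles of 74.0 to 82.5 on 12 to 15 fragments. The median over all peaks of that list was 15 fragments, so these high ranks went with fragment counts no higher than the median.

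Sequence was not used to choose the members, and position only through the 1 kb window around a coding start. Both were tested over libraries, with the weak promoters called in a list set against the core promoters. The same core promoters, and partly the same weak ones, enter the value of several libraries, so the 7 values are not fully independent, and 2 of them rest on 9 and 2 members. The CpG observed to expected ratio, over the first 300 bases of the canonical transcript, was lower at weak promoters in 7 of 7 libraries. Its median was 0.677, 0.696 and 0.721 in HFD-LSK replicates 1 to 3 and 0.525, 0.647, 0.726 and 0.730 in LFD-LSK replicates 1 to 4, against 0.853 at core promoters. The mean difference was -0.178 ± 0.0724 (SD, n = 7; exact sign-flip permutation test, two-sided, p = 0.0156, the smallest possible, adjusted p = 0.0312 over 4 relations). GC content was lower by 5.60 ± 4.19 percentage points (SD, n = 7), also in 7 of 7 libraries (exact adjusted p = 0.0312), from 66.0% at core promoters.

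Over all members, 507 of the 1414 with a sequence (35.9%) had a CpG ratio under 0.6, against 526 of 3788 core promoters (13.9%) and 45.2% of all coding genes. The median ratio was 0.704 for weak promoters, 0.853 for core promoters and 0.653 for all coding genes. By this ratio the weak promoters thus lay between the core set and coding genes as a whole, and held both CpG-poor and CpG-rich starts. With only the 5 libraries that called at least 50 members, the differences were -0.149 and -4.37 points, and 5 libraries allow no exact p under 0.0625.

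Summits of weak promoters lay farther from the nearest coding start in 6 of 7 libraries, by a mean of 72.9 ± 54.9 bp (SD, n = 7; exact sign-flip permutation test, adjusted p = 0.0417). The median distance was 352, 278 and 314.5 bp in HFD-LSK replicates 1 to 3 and 181.5, 241, 308.5 and 300 bp in LFD-LSK replicates 1 to 4. Core summits lay at medians of 191 to 222.5 bp. Most summits lay downstream of the start in both sets, 80.99% at weak and 77.0% at core promoters. Without LFD-LSK replicate 4 the adjusted p was 0.0938. A start window of 500 bp gave 39.1 bp (exact sign-flip permutation, adjusted p = 0.0625), and a window of 3 kb gave 158 bp (adjusted p = 0.0417). The size of the difference thus went with the window that chose the regions.

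Weak regions rarely covered 2 or more coding starts, 53 of 1433 (3.70%) against 703 of 3846 core regions (18.3%), which are also wider. Over libraries the difference was -6.80 ± 17.2 percentage points (SD, n = 7; exact adjusted p = 0.359), and LFD-LSK replicate 1 had 1 such region among its 2 members (50%). Without any 1 library, with the members chosen anew, the difference lay between -13.0 and -9.99 points and passed the threshold in 6 of 7 cases; without HFD-LSK replicate 1 it did not (exact adjusted p = 0.0625).

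The X chromosome, which male cells carry in a single copy, held 112 weak promoters (7.82%) but 33 core promoters (0.858%), while 4.45% of all placed coding genes are on it. Per 100 coding genes, the X had 11.7 weak and 3.46 core regions, against 4.89 to 8.58 weak and 12.9 to 22.5 core regions on chromosomes 1 to 19. By gene, 109 of 955 X-linked genes (11.4%) had a weak promoter as their most often called and 41 (4.29%) a core promoter, against 5.995% and 22.3% of autosomal genes. The share of regions on the X was not particular to the weak class: it was 6.79% and 9.21% for regions called in 1 and 2 lists, 6.83% and 6.88% in 3 and 4, and 4.09% and 2.22% in 5 and 6.

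**Figure D5:**
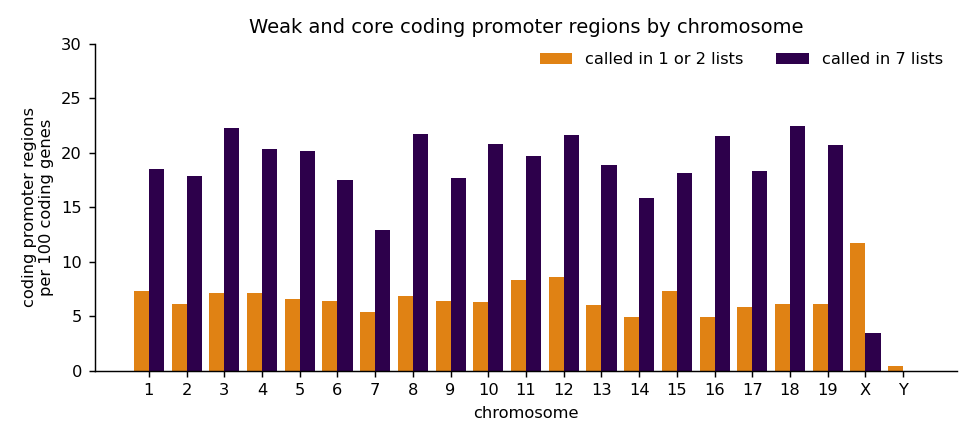
Weak (orange) and core (dark purple) coding promoter regions per 100 placed coding genes (vertical axis) on each mouse chromosome (horizontal axis). The X is the only chromosome besides the Y with more weak than core regions, 11.7 against 3.46.

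The X share was seen in several lists. Of the weak promoters called in each, 9.35% in HFD-LSK replicate 2, 7.78% in HFD-LSK replicate 3, 9.18% in LFD-LSK replicate 2, 3.33% in LFD-LSK replicate 3 and 8.77% in LFD-LSK replicate 4 were X-linked. Of all coding promoter regions in the same lists, 1.55% to 3.23% were. At equal list length the X held 105 of 1548 weak regions (6.78%), and 109 of its 955 genes (11.4%) had a weak promoter, as with the full lists. The share of all genes was 7.35% there. Without any 1 library, 110 to 135 of the 955 (11.5% to 14.1%) did, against 6.28% to 7.71% of all genes. The X-linked members included Nkrf, Il2rg, Sox3, Fgf16, Pcdh19, a protocadherin with folds of 9.21 and 5.03 in HFD-LSK replicates 2 and 3, and Col4a5, a basement membrane collagen with 6.68 in HFD-LSK replicate 3. The Y held a single weak promoter, at Uty, a demethylase-family gene, with folds of 4.79 and 3.19 in LFD-LSK replicates 2 and 4.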

How the data were processed

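CUT&Tag for H3K4me3 (the titles say CUT&RUN) in sorted LSK cells gave 1 peak list per library, 3 HFD-LSK and 4 LFD-LSK; the 7 IgG libraries were not analysed here. Groups and replicate numbers came from the labels. The submitters' processing notes name Trim Galore, Bowtie2, Picard, MACS2, bedtools, HOMER, featureCounts and GRCm38, with versions not given in the sources used here, whereas the methods of the study name SEACR and GRCm39. The lists hold MACS2 narrow peaks called on each library. The authors deposited, peak by peak, the fold (summit height as a ratio over nearby background), the score that MACS2 writes, and significance as −log10 p and −log10 q. The lowest −log10 p was 5.01 and the lowest −log10 q 2.17.

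Peaks that overlapped or touched were merged, and a list called a merged region where any of its peaks overlapped it. Gene positions came from RefSeq (GRCm38.p6): 21440 of 21887 coding genes had a start, with the strand taken by symbol from the promoter table or GENCODE. CpG ratio and GC content were computed over the first 300 bases (100 at least) of the spliced GENCODE transcript, found for 98.7% of weak and 98.5% of core promoters. These bases skip introns and differ from the printed windows, which lie mostly upstream of the start. The ratio was 0.956 there against 0.648 in the window at Ccdc57, and 0.718 against 0.885 at Lhx2. The RefSeq promoter table matched 1042 of 1433 weak and 2955 of 3846 core promoters, under the 80% required, so no share was computed over it, and genes without an entry there, or on chromosome 18, were passed over when sequences were printed. Fragments at each summit were solved from fold and p through the Poisson formula of MACS2, within 5e-05. The fragments of each list were taken as scaled to the size of a control. They give relative depth only.

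Libraries were compared by exact permutation (35 splits) or exact sign flips (128), two-sided, with Benjamini-Hochberg adjustment over the 4 feature relations. The choice of members, both permutation tests and the recovery of fragments were tested on simulated data. Genes are named by rank, width, and membership of listed groups and families: the 10 of highest rank in 2 lists, the 5 in 1 list, the 5 widest, those of each list called in 2 lists or otherwise up to 3, up to 4 per family, and the genes the study names. Other genes in the text were chosen after their values were seen. The members, gene lists and families were chosen with earlier results of these data known. Python 3.11.15, numpy 2.4.6, pandas 2.3.3, scipy 1.17.1 and matplotlib 3.10.9 were used. Results for some genes are not reported here.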

Additional observations from a re-analysis of the deposited data

Results flagged for a closer look

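LFD-LSK replicate 1 stood apart from the other LFD-LSK libraries in 3 of 29 measures, by the gap of 1 library to the nearest of the others over the range of the 4; chance flags about 1 in 20 such groups. Of its weak promoters, 50% covered 2 or more coding starts, against 1.75% to 4.76% in the other LFD-LSK libraries. Likewise 50% were on the X chromosome, against 3.33% to 9.18%. Both shares are 1 of 2 members. The fewest fragments at any of its peaks was 21, against 8 to 10.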

How the results depend on the processing

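The number of weak promoters was 2799 when a call had to cover at least 50% of a region, 825 for exactly 1 list and 608 for exactly 2, and lay between 1223 and 1994 under the other alternatives (1455 to 1760 without any 1 library). The CpG and GC differences kept their direction throughout and passed the threshold except with the 5 libraries of at least 50 members (-0.149 and -4.37 points), where no exact p can be under 0.0625. Without any 1 library they ranged from -0.186 to -0.147 and from -5.78 to -4.08. The share with 2 or more starts passed the threshold with −log10 q of at least 5 (-16.5 points), with equal lists (-15.3), with 50% cover (-12.8) and for exactly 1 list (-17.3), and ranged from -13.0 to -9.99 without any 1 library. The summit distance lost the threshold with −log10 q of at least 5 (32.6 bp), peaks within 500 bp merged (35.4 bp), a window of 500 bp (39.1 bp) and the 5 libraries (77.3 bp), and ranged from 50.2 to 80.3 bp without any 1 library. The cause was not tested. The held-out difference by diet ranged from 3.51 to 29.6 points with all 7 libraries and passed under none of those alternatives. It was 13.5 points without HFD-LSK replicate 2 and 42.4 without HFD-LSK replicate 1, the range without any 1 library, where no split of the remaining 6 can pass the threshold, so those fits show nothing about stability. With a replicate block it was 23.1 points (exact sign-flip permutation p = 0.25, the smallest for 3 pairs), with HFD-LSK higher in each pair. Same-numbered libraries correlated at 0.67, 0.276 and -0.403, so the numbers were not taken as pairs. The methods of the study list batch and sample pairing among its covariates. The labels used here give neither, so a batch could not be accounted for. The 5 libraries, the removal of members beside another region of the gene, and the gene groups and X at equal list length and without each library were chosen after seeing the data. Read depth is not given in the lists, which limits what absence of a call can show.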

Other observations

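Other families had weak promoters at shares on both sides of the 6.17% of all coding genes. G protein-coupled receptors had 21 of 155 (13.5%), Eph receptors and ephrins 4 of 22 (18.2%), integrins 5 of 31 (16.1%), semaphorins and plexins 4 of 29 (13.8%), collagens 6 of 44 (13.6%), BMP and GDF ligands 3 of 22 (13.6%), sodium and calcium channels 5 of 40 (12.5%) and TMEM proteins 25 of 235 (10.6%). Nearer the background were ADAM and ADAMTS proteases with 5 of 59 (8.47%), coiled-coil domain proteins 11 of 136 (8.09%), solute carriers 31 of 389 (7.97%), FAM proteins 11 of 170 (6.47%), histones 6 of 93 (6.45%), C-type lectins 2 of 33 (6.06%) and cytochrome P450 enzymes 5 of 99 (5.05%). Ring finger and TRIM proteins had 7 of 150 (4.67%), clustered protocadherins 2 of 57 (3.51%), serpins 2 of 63 (3.17%), keratins 2 of 112 (1.79%) and dyneins and kinesins 1 of 71 (1.41%).

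Several of these shares moved by more than 1.5 times when the processing changed. At equal list length, where 7.35% of all genes had a weak promoter, they were 15.5% for dyneins and kinesins, 11.8% for histones, 10% for FAM proteins, 9.33% for ring finger and TRIM proteins, 9.09% for Eph receptors and ephrins, 8.39% for G protein-coupled receptors, 7.5% for sodium and calcium channels, 3.03% for C-type lectins and 2.02% for cytochrome P450 enzymes, and clustered protocadherins and keratins had none. Without HFD-LSK replicate 2, histones had 17.2%, dyneins and kinesins 7.04% and semaphorins and plexins 3.45%, against 7.19% of all genes.

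The single olfactory receptor region, at Olfr94 (chr17:37196810-37197806), had folds of 6.57 and 5.86 in HFD-LSK replicates 2 and 3.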
